A study of Macaca mulatta with 33 samples.

Results

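Mitochondrial ribosomal protein genes were followed in the livers of 33 juvenile macaques. The members were all genes of the deposited expression table whose name begins with MRPL or MRPS followed by a number, which gave 67 of 34882 listed genes, 41 named MRPL and 26 named MRPS. Each liver was sequenced once, from animals aged 3 years, and every group is named by the diet of the mother during pregnancy and nursing and then by the diet after weaning, with WSD a western-style and CD a control diet. There were 7 WSD/WSD, 6 CD/WSD, 10 WSD/CD and 10 CD/CD animals. The labels call the species rhesus macaque in the organism field and Japanese macaque in the design text. They give no sex, relatedness or batch, so the p-values treat the animals as unrelated. Bulk liver RNA was measured, in which fewer cells of a type and less RNA per cell cannot be told apart.

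The mitochondrial ribosome translates the few messages of the mitochondrial genome, all of which encode parts of the respiratory chain. Its ribosomal RNAs come from mitochondrial DNA, whereas all of its proteins are encoded in the nucleus, made in the cytosol and imported. The MRPL proteins build the large subunit, which forms peptide bonds and holds the exit tunnel at the inner membrane, and the MRPS proteins build the small subunit, which reads the message. Some members descend from bacterial ribosomal proteins and others were added during mitochondrial evolution. In liver, a tissue rich in mitochondria, this machinery supports fatty acid oxidation and the other functions that need respiration.

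By textbook assignment the 67 members divided into 43 proteins of the large subunit and 23 of the small subunit. MRPS30 and MRPS18A carry small-subunit names but sit in the large subunit, and were counted there. By origin, 36 have bacterial homologs, 28 are specific to mitochondria, and MRPS18A and MRPS18B are divergent copies of bacterial S18. MRPS36 is named KGD4 in a table of identifiers and is known as an adaptor of the 2-oxoglutarate dehydrogenase complex, so it was kept by its name but assigned to no subunit. Of 76 subunit names of this form looked for, 10 were not in the name column and are not analysed here, among them MRPL12, the stalk protein.

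The levels of the members covered a wide range. Values are FPKM, fragments per length of transcript and per mapped fragment of the library, which allows levels to be compared between genes. The median of the members' means over 33 livers was 7.91 FPKM, against 4.77 FPKM for all 12497 genes tested. A mean above 50 FPKM was found for 3 members, a mean of 10 to 50 FPKM for 29, of 1 to 10 FPKM for 30 and below 1 FPKM for 5. The small subunit had a median level of 11.1 FPKM and the large subunit one of 7.55 FPKM.

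The highest was MRPS18B, with a mean level of 88.3 FPKM. MRPL32, whose maturation by a mitochondrial protease is a step of ribosome assembly, followed with 83.8 FPKM, and MRPL18, a protein of the central protuberance, with 54.2 FPKM. The 3 relatives of bacterial S18 differed widely, since the mean level of MRPS18B was 26.02 times that of MRPS18C and 104 times that of MRPS18A. MRPS18B ranged over 69.8, 80.1 and 89.5 FPKM in WSD/WSD livers (lowest, median and highest), over 72.4, 77.9 and 99.6 FPKM in CD/WSD, over 53.1, 86.2 and 105 FPKM in WSD/CD and over 83.3, 105 and 127 FPKM in CD/CD livers. MRPS18C had means of 4.04 ± 0.834, 3.61 ± 0.435, 3.10 ± 1.18 and 3.10 ± 0.797 FPKM in the same 4 groups (SD, n = 7, 6, 10 and 10). MRPS18A, with means between 0.725 and 1.02 FPKM, was the lowest of the 3 in every group.

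At the low end stood MRPL52, MRPL33 and MRPL22. MRPL52 was listed at 0 in 21 of 33 livers and, with a mean of 0.448 FPKM, was below the minimum of 0.5 FPKM for testing, so 66 members were tested. MRPL33, the homolog of a small bacterial protein, had a mean of 0.526 FPKM and was listed at 0 in 1 liver. MRPL22, which lines the exit tunnel, had a mean of 0.844 FPKM. The other 65 members, MRPL22 among them, were above 0 in all 33 livers. The spread between animals, as a coefficient of variation over 33 livers, was 25.5% for the median member tested, 14.5% for MRPL9 and 87.4% for MRPL33.

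**Figure D1:**
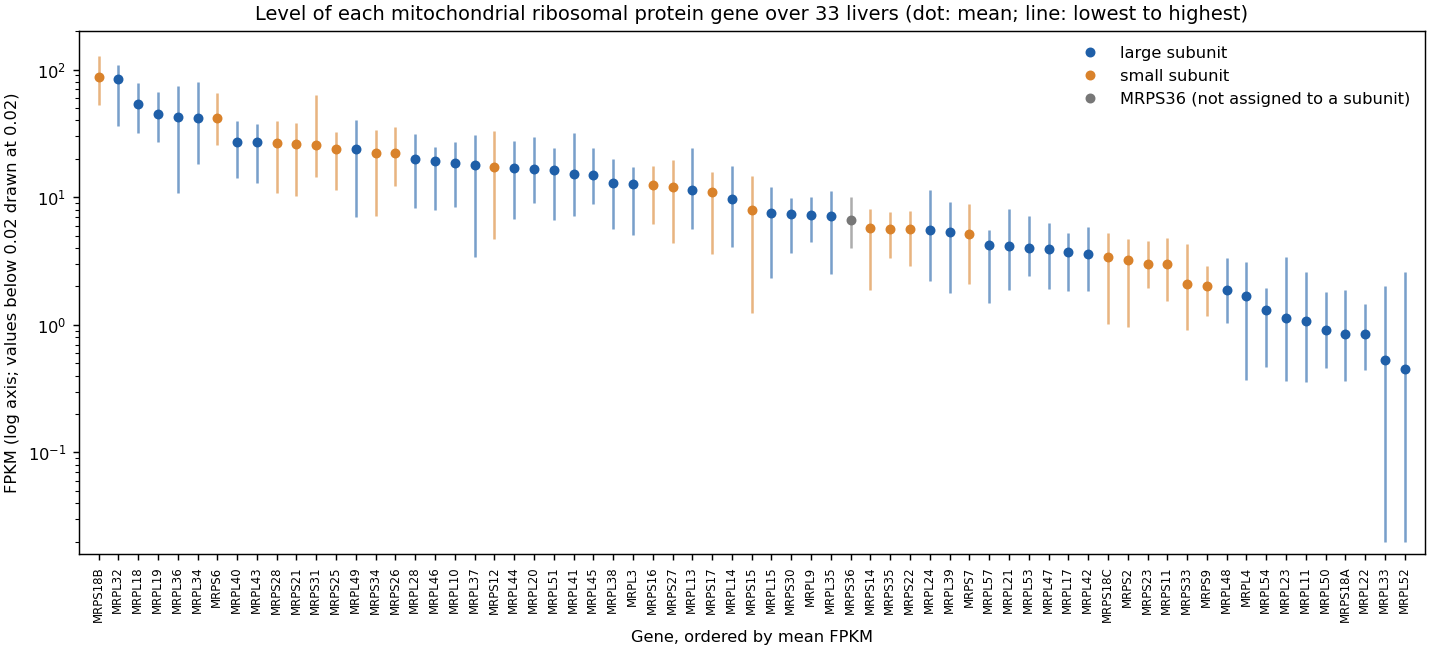
Mean level of each of the 67 genes over 33 livers (dots) with the lowest and highest liver (lines), in FPKM on a logarithmic axis, ordered by mean and coloured by subunit. MRPS18B at 88.3 FPKM and MRPL52 at 0.448 FPKM mark the ends of the order, and both subunits are spread along it.

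Across the libraries as a whole, 15519 to 17298 genes were listed above 0. The share of summed FPKM from mitochondrially encoded genes lay between 1.33% and 16.1%, and the relative depth that low values allow to be estimated, a rough measure, between 0.526 and 1.66 of CD/CD replicate 4. No libraries were identical. None of the 14 hepatocyte markers examined was at 0 in all livers of a group. The animal numbers in the labels begin with 30, 31, 33 or 34, and all 5 animals of the last series belong to WSD/CD. What a series stands for is not given in the labels.

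Each liver was summarised by the median, over the 66 tested members, of the difference in log2(FPKM + 1) from the CD/CD mean. This member median lay between -0.26 and -0.02 in the 7 WSD/WSD livers, between -0.30 and 0.03 in the 6 CD/WSD livers, between -0.9995 and -0.03 in the 10 WSD/CD livers and between -0.11 and 0.16 in the 10 CD/CD livers. Summed over the members, the level was 978 ± 82.4 FPKM in WSD/WSD, 992 ± 88.1 FPKM in CD/WSD, 893 ± 201 FPKM in WSD/CD and 1146 ± 68.4 FPKM in CD/CD livers (SD, n = 7, 6, 10 and 10). The 3 other groups thus had lower mean sums than CD/CD, with the widest spread in WSD/CD.

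The lowest member medians were those of 4 animals of the series beginning with 34. WSD/CD replicates 6, 7, 9 and 10 had member medians of -0.9995, -0.64, -0.56 and -0.47, with 64, 62, 62 and 59 of 66 members below the CD/CD mean. The same 4 libraries had 15.8%, 11.5%, 16.1% and 7.58% of summed FPKM in mitochondrially encoded genes, and their median difference of the 14 hepatocyte markers from the CD/CD mean was -2.06, -1.26, -1.64 and -0.87 on the log2 scale. Replicate 8, of the same series, had a member median of -0.03, a mitochondrial share of 1.98% and a hepatocyte marker difference of -0.01. The other 5 WSD/CD livers had member medians between -0.23 and -0.08.

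Because FPKM is relative to all mapped fragments of a library, each library was also rescaled by the median ratio of its genes to their means. The median of all tested genes in WSD/CD against CD/CD was -0.15 before and 0.01 after rescaling. That of WSD/WSD against CD/CD was 0.10 before and -0.01 after, and that of WSD/WSD against WSD/CD was 0.26 before and -0.02 after. Medians of all genes near 0 after rescaling follow from the method. After rescaling the member median lay between -0.38 and -0.09 in WSD/WSD, between -0.35 and 0.03 in CD/WSD, between -0.46 and 0.03 in WSD/CD and between -0.26 and 0.14 in CD/CD. The WSD/CD livers were then spread less widely and the WSD/WSD livers lay lower.

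**Figure D2:**
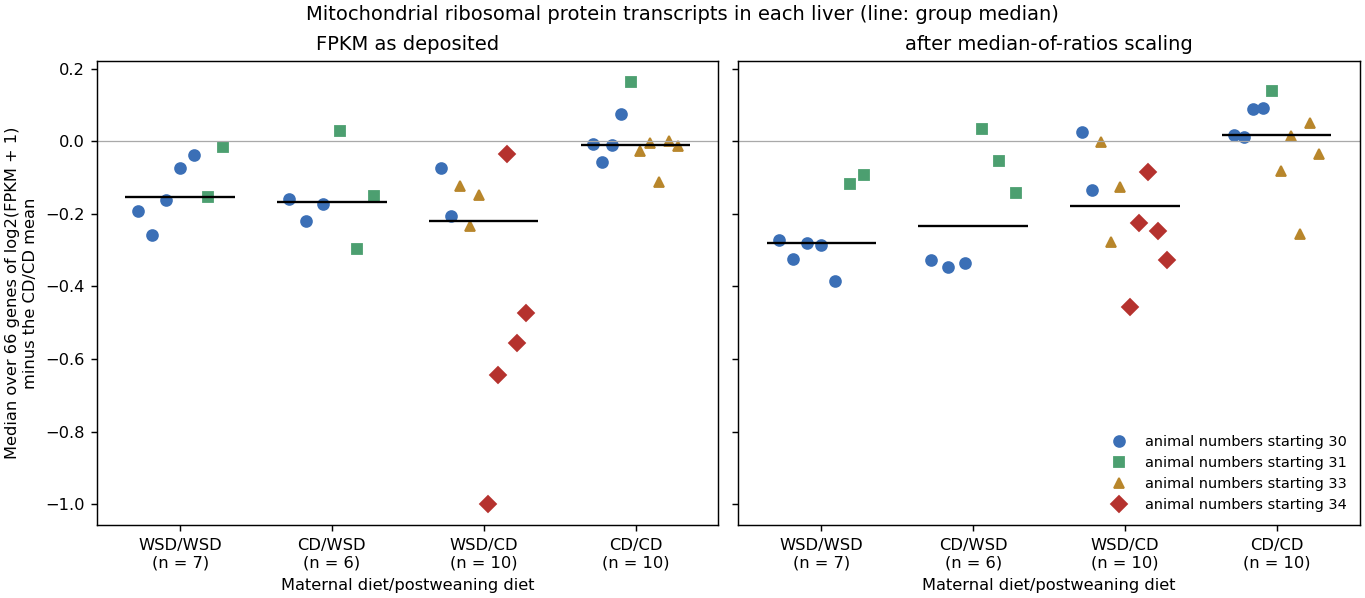
Median over the 66 tested genes of log2(FPKM + 1) minus the CD/CD mean in each liver, as deposited (left) and after median-of-ratios scaling (right), by diet group, with the line at the group median and the symbol giving the first digits of the animal number. Left, 4 of the 5 WSD/CD animals with numbers beginning 34 lie at -0.47 or lower; right, all groups lie between -0.46 and 0.14.

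In animals given the western-style diet before and after weaning, some members were lower than in animals that never had it, and none passed as higher. Of 66 members, 9 fell in WSD/WSD against CD/CD and 0 rose (13.6% of members lower). Over all 12497 genes 3.42% fell, 13.2% rose and 16.7% passed in either direction. The median member difference was -0.16 on the log2 scale, while the median over all tested genes was 0.10. A limma model with 4 group means over all 33 livers gave these calls, at an adjusted p under 0.05.

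MRPL20 (ENSMMUG00000051786) showed the lowest adjusted p in this comparison. Its bacterial homolog L20 is needed early in the assembly of the large subunit. Levels were 8.99, 11.3 and 13.6 FPKM in WSD/WSD livers (lowest, median and highest) and 15.5, 22.3 and 29.9 FPKM in CD/CD livers. The ranges did not overlap, and the highest WSD/WSD liver stayed below the lowest CD/CD liver. The means were 11.7 ± 1.60 FPKM in WSD/WSD and 22.2 ± 4.98 FPKM in CD/CD (SD, n = 7 and 10), a log2 difference of -0.85 (SE 0.134, limma adjusted p = 0.000902).

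MRPL20 also had values between these in the 2 groups that had the western-style diet at 1 stage. They were 11.6, 14.2 and 18.6 FPKM in CD/WSD and 11.3, 15.7 and 20.3 FPKM in WSD/CD. Both of these ranges overlapped each other and those of WSD/WSD and CD/CD. WSD/CD was lower than CD/CD by a log2 difference of -0.48 (SE 0.121, limma adjusted p = 0.0211), and CD/WSD differed from CD/CD by -0.56 (SE 0.140, limma adjusted p = 0.122), which did not pass. These 3 differences share the CD/CD animals.

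MRPL24 (ENSMMUG00000000039) sits at the exit of the tunnel, and its bacterial homolog starts the assembly of the large subunit. Its level was 2.92, 3.68 and 6.88 FPKM in WSD/WSD livers, 2.88, 4.20 and 6.43 FPKM in CD/WSD, 2.19, 4.54 and 7.77 FPKM in WSD/CD and 5.03, 8.18 and 11.4 FPKM in CD/CD livers. All 3 groups with a western-style diet at some stage had a median below the lowest CD/CD liver, although their ranges overlapped the CD/CD range. The log2 difference from CD/CD was -0.73 in WSD/WSD (SE 0.199, limma adjusted p = 0.0173) and -0.78 in WSD/CD (SE 0.181, limma adjusted p = 0.0164). It was also -0.78 in CD/WSD, where it did not pass (SE 0.209, limma adjusted p = 0.124).

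The other called members with the largest decreases were MRPL13, MRPL40 and MRPL41. MRPL13, homolog of the early assembly protein L13 of bacteria, had 8.01, 9.69 and 11.6 FPKM in WSD/WSD and 10.02, 13.9 and 24.2 FPKM in CD/CD, a log2 difference of -0.54 (SE 0.145, limma adjusted p = 0.0163). MRPL40, a mitochondria-specific protein of the central protuberance, had 21.2, 21.8 and 29.3 FPKM in WSD/WSD and 26.4, 31.8 and 39.2 FPKM in CD/CD, a log2 difference of -0.44 (SE 0.137, limma adjusted p = 0.0283). MRPL41, another mitochondria-specific protein of the large subunit, had 11.3, 15.9 and 16.8 FPKM in WSD/WSD and 13.7, 19.4 and 32.02 FPKM in CD/CD, a log2 difference of -0.42 (SE 0.147, limma adjusted p = 0.0450). For these 3 members the ranges overlapped, while all 7 WSD/WSD livers lay below the CD/CD mean of log2(FPKM + 1), the scale on which animals are counted below or above a mean here.

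The remaining 4 calls were MRPL45, which holds the ribosome at the inner membrane, with a log2 difference of -0.42, MRPS36 with -0.39, MRPS18B with -0.34 and MRPS9 of the small-subunit head with -0.28. By subunit, 6 of 42 large-subunit and 2 of 23 small-subunit members fell. By origin, 4 of 36 members with bacterial homologs and 3 of 27 mitochondria-specific members fell. The classes were not tested against each other. Of the marker genes, 3 of 11 endothelial markers were higher, with summed levels of 37.8, 121 and 138 FPKM in WSD/WSD (lowest, median and highest) and 40.7, 73.7 and 128 FPKM in CD/CD. Of 10 Kupffer cell markers 2 were lower, although the median marker difference was 0.26, with summed levels of 278, 736 and 826 FPKM in WSD/WSD and 411, 518 and 927 FPKM in CD/CD. Of 14 hepatocyte markers 0 passed, 1 of 13 stellate cell markers was higher, no marker was at 0 in every liver of a group, and their part in the result was not tested.

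**Figure D3:**
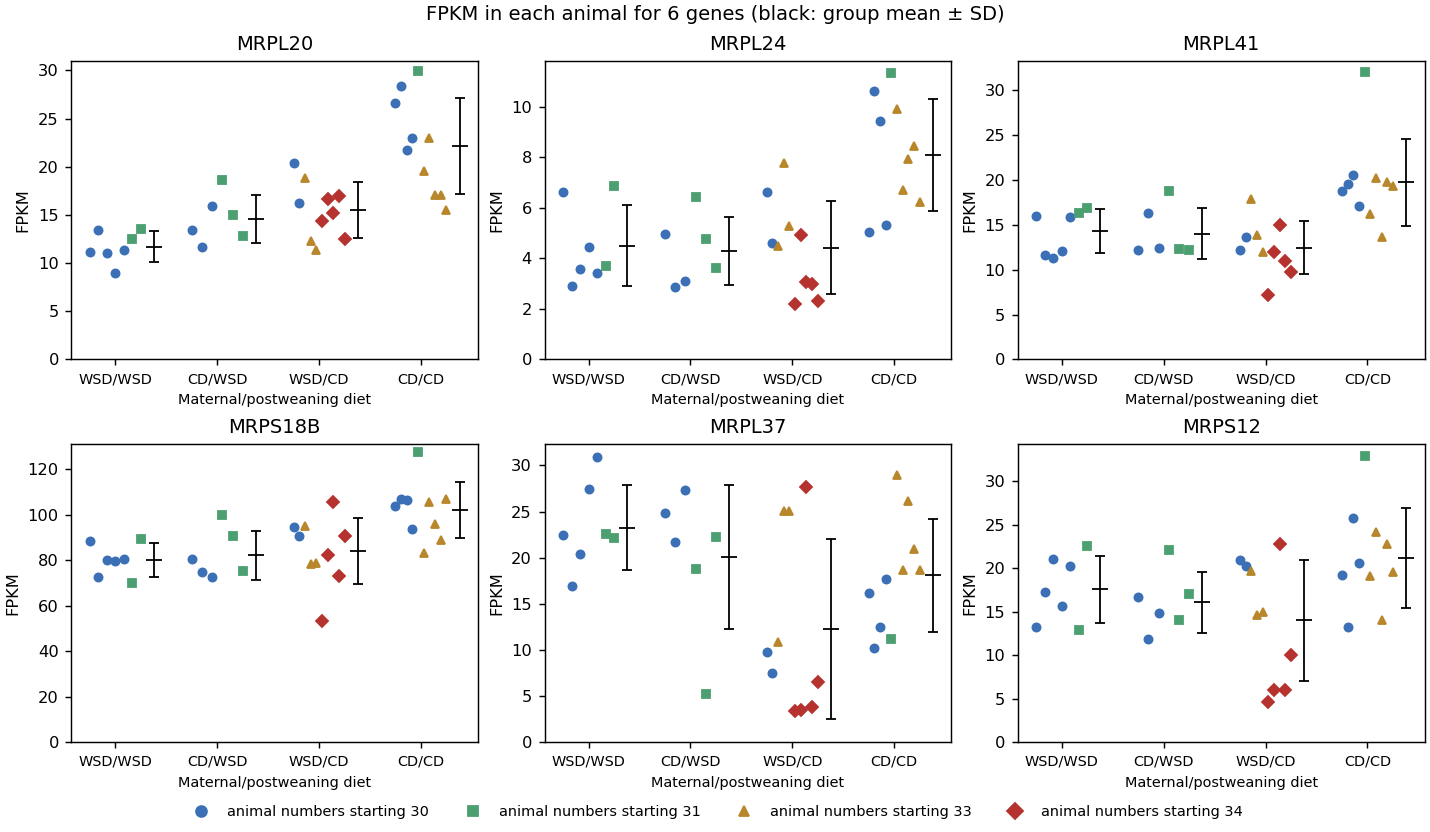
FPKM in each animal for 6 genes, by diet group, with group mean ± SD in black and symbols for the first digits of the animal number. For MRPL20 the 7 WSD/WSD animals, at 8.99 to 13.6 FPKM, lie below all 10 CD/CD animals, at 15.5 to 29.9 FPKM; for MRPL37 and MRPS12, 4 WSD/CD animals with numbers beginning 34 lie lowest in their group.

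The WSD/WSD comparison has no animal of the series beginning with 34, and it could also be fitted within series. With the number series as a factor in the model, 21 members fell and 4 rose in WSD/WSD against CD/CD, while over all genes 13.5% fell and 30.7% rose. In either direction this was 37.9% of members, against 44.2% of all genes. Within the series beginning with 30 alone, with 5 WSD/WSD and 4 CD/CD animals, 20 fell and 7 rose, while over all genes 11.4% fell and 33.3% rose, which in either direction made 40.9% of members and 44.7% of all genes. Within the series beginning with 31, which has 2 WSD/WSD animals and 1 CD/CD animal, 0 passed. All 9 members called over all animals were among those lower with the series as a factor and among those lower in the series beginning with 30. These fits use the same animals or part of them, so this overlap is not an independent repeat. Of the 10 CD/CD animals, 5 are in the series beginning with 33, which has no WSD/WSD animal.

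MRPL20 had a log2 difference of -1.09 with the series as a factor (SE 0.123, limma adjusted p = 1.04e-06) and of -1.09 in the series beginning with 30 (SE 0.131, limma adjusted p = 4.13e-05). The 4 members higher with the series as a factor, named here after their values were seen, were MRPL37, MRPL39, MRPL4 and MRPL47. Their log2 differences were 0.85, 0.77, 0.60 and 0.34, against 0.39, 0.53, 0.36 and 0.24 over all animals, where none of the 4 passed. MRPL37 and MRPL39 are mitochondria-specific, and MRPL4 and MRPL47 have bacterial homologs. The count of 9 depended on single animals and was 3 to 5 without CD/CD replicate 1, 2, 3, 5 or 10 or without WSD/WSD replicate 1, 2, 3, 4 or 5. Over all genes the calls fell as well, from 2083 to between 836 and 1632 in those fits. MRPL20, MRPL24 and MRPL13 passed in all 17 fits that leave out 1 animal, whereas MRPL40 was lost in 5 and MRPL41 in 13 of them.

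The postweaning diet alone, in offspring of control-diet mothers, changed no member past the threshold. In CD/WSD against CD/CD 0 of 66 members passed, as did 0.024% of all genes in either direction. At an unadjusted p under 0.05 there were 13 members and 1790 genes. The median member difference was -0.16, with 51 members negative, against a median of 0.03 over all genes. The 3 members with the smallest p were MRPS9, MRPL20 and MRPL24.

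MRPS9, whose bacterial homolog reaches with its tail towards the transfer RNA in the peptidyl site, had 1.17, 1.56 and 1.87 FPKM in CD/WSD and 1.79, 2.30 and 2.92 FPKM in CD/CD. The ranges overlapped by little, and the log2 difference was -0.38 (SE 0.0934, limma adjusted p = 0.111). With the number series as a factor 17 members fell and 1 rose, against 11.3% lower and 22.9% higher over all genes. MRPL20 then had a log2 difference of -0.85 (SE 0.133, limma adjusted p = 9.31e-05), MRPL24 one of -0.91 (SE 0.204, limma adjusted p = 0.00139) and MRPL39, the member that rose, one of 0.61 (SE 0.203, limma adjusted p = 0.0204). In the series beginning with 30 alone, 14 fell and 5 rose, against 9.75% lower and 29.3% higher over all genes. In the series beginning with 31, which has 3 CD/WSD animals and 1 CD/CD animal, 0 passed. Without CD/WSD replicate 4 over all animals, MRPS9, MRPL20 and MRPL24 passed, the only 1 of 16 fits leaving out 1 animal in which any member did. That fit called 136 of all genes, against 3 with every animal.

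In offspring of mothers on the western-style diet that were weaned to control diet, members of both subunits were lower when all animals were compared. Of 66 members 24 fell in WSD/CD against CD/CD and 0 rose (36.4% of members lower). Over all genes 8.03% fell, 1.52% rose and 9.55% passed in either direction. The median member difference was -0.32 and that of all genes -0.15, with 62 members negative. The 4 positive members were MRPL33, MRPS31, MRPS6 and MRPL50, with log2 differences of 0.12, 0.11, 0.08 and 0.00, none of which passed.

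The counts of 9 in WSD/WSD and 24 in WSD/CD were not tested against each other, and their order turned with the fit. They were 24 in WSD/WSD and 5 in WSD/CD after median-of-ratios scaling, 21 and 0 in the same order with the number series as a factor, and 14 and 0 without the animals numbered from 34 on. The order turned likewise over all genes, of which 3.42% in WSD/WSD and 8.03% in WSD/CD fell in the main fit. In the other 3 fits these shares were 7.98% and 2.5%, 13.5% and 0.0%, and 4.8% and 0.0%.

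Of the 24 lower in WSD/CD over all animals, members lay in several regions of the particle. By subunit 15 of 42 large-subunit and 9 of 23 small-subunit members fell, and by origin 13 of 36 members with bacterial homologs and 11 of 27 specific to mitochondria. Of 5 members of the central protuberance 3 fell, of 6 at the tunnel exit 1 and of 6 in the small-subunit head 2. The largest decrease was that of MRPL24, given above. MRPL41 (ENSMMUG00000039736) had 7.18, 12.1 and 17.9 FPKM in WSD/CD and 13.7, 19.4 and 32.02 FPKM in CD/CD, with all 10 WSD/CD livers below the CD/CD mean and a log2 difference of -0.63 (SE 0.134, limma adjusted p = 0.0133).

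MRPL34, the homolog of a short protein of the bacterial large subunit, had 18.2, 34.3 and 53.8 FPKM in WSD/CD and 41.0, 52.2 and 79.8 FPKM in CD/CD, a log2 difference of -0.65 (SE 0.157, limma adjusted p = 0.0185). MRPS34, a mitochondria-specific protein of the small subunit, had 7.15, 16.4 and 33.4 FPKM in WSD/CD and 19.1, 25.5 and 31.2 FPKM in CD/CD, a log2 difference of -0.65 (SE 0.192, limma adjusted p = 0.0351). MRPS12, the protein of the decoding centre, had 4.69, 14.8 and 22.7 FPKM in WSD/CD and 13.2, 20.1 and 32.9 FPKM in CD/CD, a log2 difference of -0.69 (SE 0.223, limma adjusted p = 0.0461). In each of these the groups overlapped, and for all 24 called members the ranges of WSD/CD and CD/CD met.

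MRPS12 and MRPS34 show how uneven the WSD/CD group was. MRPS12 had 4.69, 5.98, 6.01 and 10.02 FPKM in WSD/CD replicates 6, 7, 9 and 10 and 22.7 FPKM in replicate 8, the highest of the group. MRPS34 had 7.15, 9.66, 9.66 and 10.2 FPKM in the same 4 livers and 33.4 FPKM in replicate 8, again the highest. Over all WSD/CD livers, 8 of 10 lay below the CD/CD mean for either gene. The call of MRPS12 was lost in 12 and that of MRPS34 in 10 of 20 fits that leave out 1 library, among them each of WSD/CD replicates 6, 7, 9 and 10.

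The calls of this comparison were lost without the animals whose numbers begin with 34, and also in some fits that kept them. Without those 5 animals, which leaves fewer WSD/CD animals, 0 of 66 members and 0.0% of all genes passed. The median member difference was then -0.16, with 56 members negative. Within the series beginning with 33, with 3 WSD/CD and 5 CD/CD animals, 0 members and 0.024% of all genes passed, and the median was -0.16. Within the series beginning with 30, with 2 WSD/CD and 4 CD/CD animals, MRPS34 fell, MRPS31 rose and no other member passed, against 0.992% of all genes lower and 1.93% higher. With the series as a factor 0 members and 0.008% of all genes passed, in a fit where the series beginning with 31 and 34 each hold animals of only 1 of these 2 groups. In a fit of the 2 groups alone 0 members and 0.0% of all genes passed. At an unadjusted p under 0.05 limma gave 15 members and 999 genes without the animals numbered from 34 on, 11 members and 1005 genes with the series as a factor, 8 members and 638 genes within the series beginning with 33, and 43 members and 3315 genes in the fit of the 2 groups alone.

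Cell type markers differed in this comparison as well. Of 14 hepatocyte markers 7 were lower, with summed levels of 7249 to 35776 FPKM in WSD/CD and 26574 to 39162 FPKM in CD/CD. Of 13 stellate cell and fibroblast markers 7 were higher, with summed levels of 148 to 344 FPKM in WSD/CD and 107 to 222 FPKM in CD/CD, and 1 of 4 tested cholangiocyte markers was higher. Endothelial, Kupffer and T and natural killer cell markers had 0 of 11, 0 of 10 and 0 of 8 past the threshold, and no marker of any list was at 0 in every liver of a group. The part of cell composition in the result was not tested. With the mitochondrially encoded share as a covariate 0 of 66 members and 0.0% of all genes passed (11 members and 798 genes at an unadjusted p under 0.05 in limma), and after median-of-ratios scaling 5 fell, against 2.50% of all genes lower. Those 5 were MRPL24, MRPL34, MRPL41, MRPL44 and MRPS27.

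**Figure D4:**
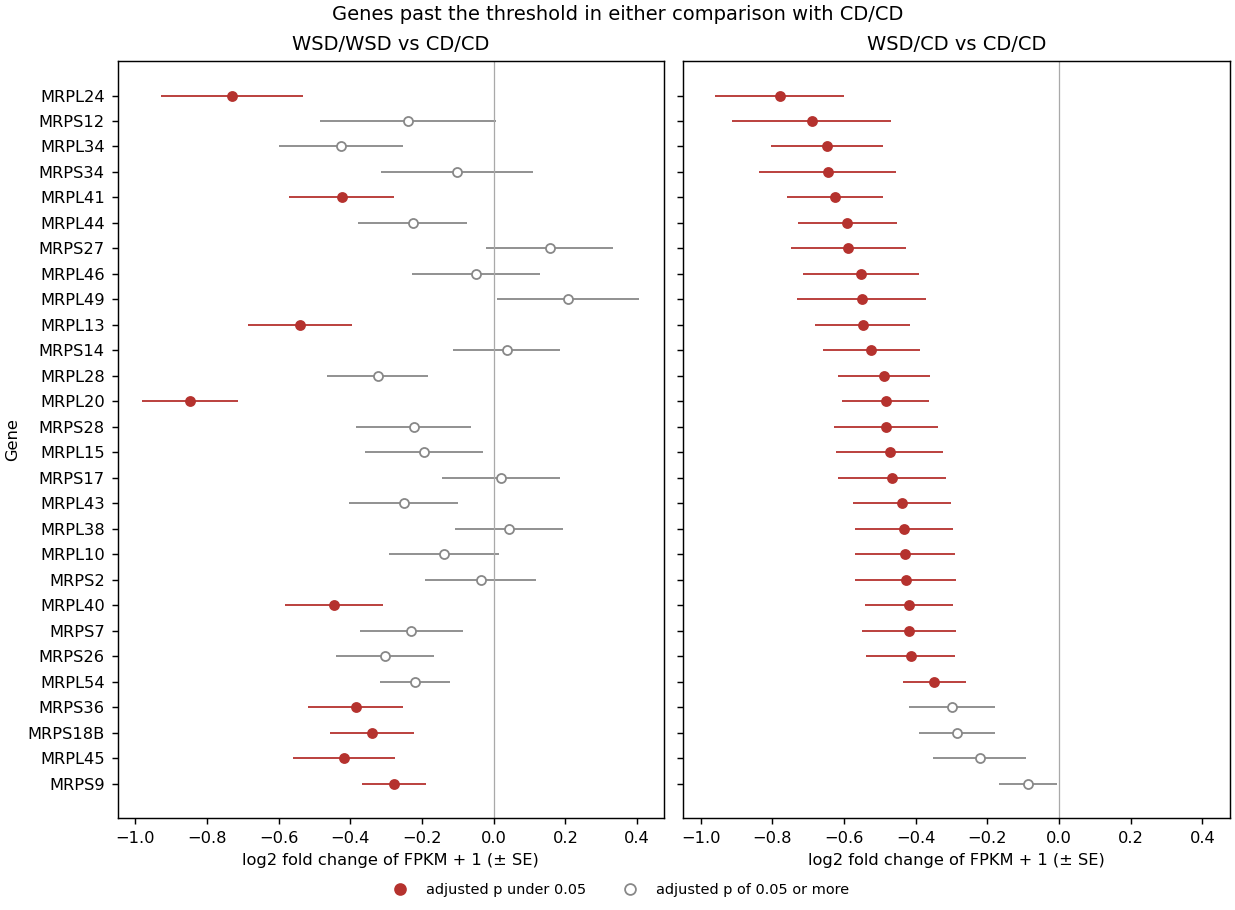
log2 fold change of FPKM + 1 with its standard error for the 28 genes past the threshold in WSD/WSD (left) or WSD/CD (right) against the same CD/CD animals, ordered by the WSD/CD value, filled where the limma adjusted p was under 0.05. MRPL24 lies near -0.7 to -0.8 in both panels, while MRPS27 is at 0.16 on the left and -0.59 on the right. Every filled point is below 0 as deposited and after median-of-ratios scaling.

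With the western-style diet after weaning, animals of mothers on that diet had higher levels of several members than animals weaned to control diet when all animals were compared. In WSD/WSD against WSD/CD 16 of 66 members rose and 1 fell, or 24.2% and 1.52% of members, while over all genes 37.9% rose, 6.14% fell and 44.0% passed in either direction. The share of members that rose was thus below that of all genes. The median member difference was 0.19 and that of all genes 0.26 as deposited, but after median-of-ratios scaling the median member difference was -0.12, and 6 members rose and 12 fell, against 18.1% and 17.9% of all genes. With the number series as a factor it was -0.06, and 7 members rose and 8 fell, against 30.8% and 10.1% of all genes.

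The largest increase was that of MRPL37, a mitochondria-specific protein of the large subunit. Its level was 16.9, 22.4 and 30.9 FPKM in WSD/WSD and 3.43, 8.64 and 27.7 FPKM in WSD/CD, a log2 difference of 1.20 (SE 0.347, limma adjusted p = 0.00704). The ranges overlapped, with 3 WSD/CD livers at 25 FPKM or above, and the lowest values were 3.43, 3.50, 3.80 and 6.52 FPKM in WSD/CD replicates 6, 7, 9 and 10. MRPL37 had 10.2, 18.2 and 28.96 FPKM in CD/CD livers, from which neither group differed past the threshold.

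MRPL49, also specific to mitochondria, had 22.7, 27.2 and 40.3 FPKM in WSD/WSD and 7.04, 16.9 and 28.9 FPKM in WSD/CD, a log2 difference of 0.76 (SE 0.198, limma adjusted p = 0.00367). MRPS27, which binds RNA in the small subunit, had 11.8, 14.1 and 19.5 FPKM in WSD/WSD and 4.38, 8.63 and 13.4 FPKM in WSD/CD, a log2 difference of 0.74 (SE 0.176, limma adjusted p = 0.00212). MRPL39 differed by 0.70 (SE 0.200) and MRPL4, homolog of a protein that lines the bacterial exit tunnel, by 0.69 (SE 0.171), with all 7 WSD/WSD livers above the WSD/CD mean for both. MRPL37, MRPL49, MRPS27, MRPL39, MRPL4 and MRPL35 were the 6 that rose after rescaling as well.

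MRPL20 was the 1 member that fell, with 8.99, 11.3 and 13.6 FPKM in WSD/WSD and 11.3, 15.7 and 20.3 FPKM in WSD/CD. The ranges overlapped, and the log2 difference was -0.36 (SE 0.134, limma adjusted p = 0.0282). The call was lost without WSD/CD replicate 1 or WSD/WSD replicate 4. By subunit, 11 of 42 large-subunit members rose and 1 fell, and 5 of 23 small-subunit members rose. Of 14 hepatocyte markers 9 were higher, with summed levels of 27041 to 41225 FPKM in WSD/WSD and 7249 to 35776 FPKM in WSD/CD, of 13 stellate cell and fibroblast markers 6 were lower, at 121 to 195 FPKM in WSD/WSD and 148 to 344 FPKM in WSD/CD, and their part was not tested. Without the animals numbered from 34 on, 0 members passed (10 members and 3851 genes at an unadjusted p under 0.05 in limma), while 3.07% of all genes rose and 0.384% fell, and within the series beginning with 30, with 5 WSD/WSD and 2 WSD/CD animals, 8 rose and 11 fell, while 3874 and 1312 of the 12497 genes did.

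Maternal diet made no detectable difference to the members among animals weaned to western-style diet. In WSD/WSD against CD/WSD 0 of 66 members passed, as did 0.0% of all genes, and at an unadjusted p under 0.05 there were 0 members and 307 genes in the limma fit. MRPL20 had the smallest p, with 8.99, 11.3 and 13.6 FPKM in WSD/WSD and 11.6, 14.2 and 18.6 FPKM in CD/WSD, a log2 difference of -0.29 (SE 0.151, limma adjusted p = 0.962). MRPL13 differed by -0.28 (SE 0.163) and MRPL19, homolog of a bacterial protein at the interface of the subunits, by -0.24 (SE 0.140), both with ranges that overlapped.

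The interaction asks whether the difference by maternal diet depends on the diet after weaning. No member passed, nor did any other gene (0.0%), while 24 members and 2453 genes had an unadjusted p under 0.05 in the limma fit. These counts were 2 members and 1560 genes after median-of-ratios scaling, and 4 and 740 with the number series as a factor. They were 6 and 780 without animals numbered above 34000, and 1 and 336 with the mitochondrially encoded share as a covariate. They stayed at 24 and 2453 with a pseudocount of 0.1, and were 25 and 2910 without a filter. With the Y-linked level as a covariate they were 18 and 2114, and in series 30 alone 9 and 1470. In the main fit the smallest p belonged to MRPL38, MRPL41 and MRPL24. For MRPL38, of the central protuberance, the maternal diet difference was 0.28 after weaning to western-style diet and -0.43 after weaning to control diet, an interaction of 0.71 on the log2 scale (SE 0.217, limma adjusted p = 0.209). MRPL41 had an interaction of 0.66 (SE 0.213) and MRPL24 one of 0.83 (SE 0.288).

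**Figure D5:**
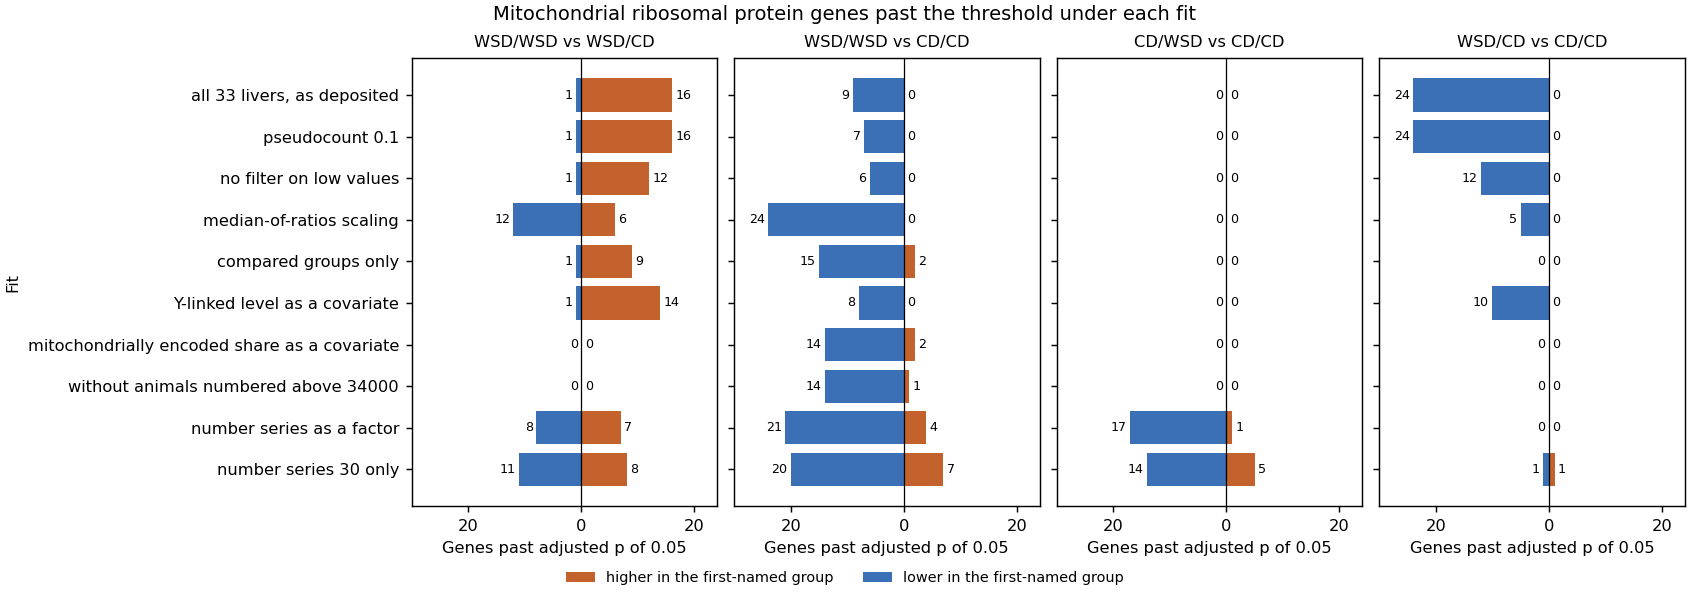
Number of the 66 genes past an adjusted p of 0.05 in 4 comparisons under 10 fits, with bars to the right for genes higher in the first-named group and to the left for genes lower in it. The 24 lower in WSD/CD against CD/CD are 0 in 4 of the other 9 fits, whereas WSD/WSD against CD/CD gives between 6 and 21 lower without rescaling and 24 with median-of-ratios scaling, which also turns WSD/WSD against WSD/CD from mostly higher to mostly lower.

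The rest of the machinery for mitochondrial translation was examined by lists. Without the animals numbered from 34 on, 0 genes of each of these lists passed in WSD/CD against CD/CD, as for the members. Their counts are to be read against the shares over all genes given above, which were 8.03% lower in WSD/CD against CD/CD, 13.2% higher and 3.42% lower in WSD/WSD against CD/CD, and 37.9% higher and 6.14% lower in WSD/WSD against WSD/CD. Of 5 further subunits with other names, 0 passed in WSD/CD against CD/CD, and AURKAIP1, the small-subunit protein also called mS38, fell in WSD/WSD, with 57.2 ± 8.83 FPKM against 95.3 ± 30.3 FPKM in CD/CD (SD, n = 7 and 10) and a log2 difference of -0.68 (SE 0.191, limma adjusted p = 0.0193). DAP3 and PTCD3 rose in WSD/WSD against WSD/CD, by 0.56 and 0.51, and AURKAIP1 fell. In that comparison the 5 gave 0 higher and 2 lower after median-of-ratios scaling, and 0 passed without the animals numbered from 34 on. DAP3 and PTCD3 are small-subunit proteins specific to mitochondria.

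Of 20 tested assembly and ribosomal RNA modification factors, 2 fell in WSD/CD against CD/CD, MRM2 and MTERF3, with log2 differences of -0.51 and -0.36, a share near that of all genes. MRM2 methylates the large ribosomal RNA. In WSD/WSD against CD/CD 2 rose and 1 fell, among them GTPBP10, a GTPase of large-subunit assembly, with 0.62, and MTRES1, a factor that acts on stalled mitochondrial ribosomes and on transcription, with -0.49. After median-of-ratios scaling 1 rose and 3 fell. Of 16 translation factors, 1 fell in WSD/CD against CD/CD, the recycling factor MRRF with -0.56, and 0 passed in WSD/WSD against CD/CD. Against WSD/CD, 12 rose and 1 fell in WSD/WSD, but 2 rose and 1 fell after median-of-ratios scaling, and 0 passed without the animals numbered from 34 on.

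Of 19 tested aminoacyl-tRNA synthetases and related enzymes, 5 fell in WSD/CD against CD/CD, among them SARS2 with -0.48 and YARS2 with -0.56, and 1 after median-of-ratios scaling. Against CD/CD, WSD/WSD livers had 2 higher and 1 lower, EARS2 with 0.77 and GATB, a subunit of the amidotransferase that completes glutaminyl-tRNA, with 0.52 among them. After median-of-ratios scaling these were 2 higher and 3 lower. Of 22 genes of mitochondrial transcription and RNA processing, 4 fell in WSD/CD, among them HSD17B10, a subunit of mitochondrial RNase P, with -0.77, and the RNA polymerase POLRMT with -0.48, and 2 after median-of-ratios scaling.

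TFAM, which packages mitochondrial DNA and starts its transcription, rose in WSD/WSD against CD/CD, with 28.5 ± 4.45 FPKM in WSD/WSD and 14.9 ± 5.55 FPKM in CD/CD (SD, n = 7 and 10) and a log2 difference of 0.96 (SE 0.283, limma adjusted p = 0.0237). TWNK, the helicase of mitochondrial DNA, fell in the same comparison, with -0.50. Of 11 regulators of mitochondrial biogenesis 4 rose, among them TFAM and GABPA, a transcription factor subunit with 0.75, and 0 passed in WSD/CD against CD/CD. In WSD/WSD against CD/CD, 9 of 66 members fell, and 17 had positive differences that did not pass.

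The mitochondrially encoded messages, which the ribosome translates, were in part higher in WSD/CD. Of 12 tested, 4 rose and 0 fell in WSD/CD against CD/CD, among them COX1 with 318 ± 189 FPKM in WSD/CD and 131 ± 40.4 FPKM in CD/CD (SD, n = 10 each) and a log2 difference of 1.07 (SE 0.278, limma adjusted p = 0.0232). In WSD/WSD against CD/CD 0 of 12 passed, and in WSD/WSD against WSD/CD 10 fell, which became 0 without the animals numbered from 34 on and 2 with the series as a factor. For the 69 cytosolic ribosomal protein genes, 8 fell in WSD/CD and 4 in WSD/WSD against CD/CD, with 0 higher in either, and their median differences were -0.28 and -0.10. After median-of-ratios scaling 3 fell in WSD/CD and 15 in WSD/WSD. The members' medians in the same 2 comparisons, as deposited, were -0.32 and -0.16. No test was made of lists against each other.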

How the data were processed

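Liver RNA of 33 animals was measured, with total RNA from a Qiagen kit and strand-specific Swift mRNA libraries read in pairs on a NovaSeq, per the labels' protocols. Cufflinks, GSNAP and SAMtools were used, per the submitters' processing notes. How they were combined is not given in the sources used here, and neither is a genome build. A single table of FPKM values for 34882 genes was deposited by the authors. It holds no counts, so total depth is unknown and no counting interval is given. Columns were assigned to animals by the animal number in the sample titles. The code 999999999 was read as missing, in 15 genes and no member. Replicate numbers follow accession order and only name animals.

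From these values log2(FPKM + 1) was tested with limma 3.58.1 in R 4.3.3, with an intensity trend, 1 model of 4 group means (29 residual degrees of freedom), and Benjamini-Hochberg adjustment over the 12497 genes with a mean of at least 0.5 FPKM, at 0.05. The pseudocount of 1 understates changes of low genes. The fit was tested on simulated data, in which genes varied independently, with the same spread in all groups and no shift of whole libraries. The livers differed from this, as the member median had an SD of 0.310 in WSD/CD and 0.0739 in CD/CD. That test therefore does not decide how reliable the calls are here. Reads shared with pseudogene copies, common in this family, could not be checked. No sequences or coordinates are given.

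The members, lists and tests were chosen with earlier results of these data known, and lists are described by counts. Members named are the 5 largest increases and decreases past the threshold in each comparison, or the 3 smallest p where fewer than 3 passed, the 3 highest and lowest levels, the S18 relatives, MRPS12 and MRPL12, and the 2 smallest p of each list. The other called members of WSD/WSD against CD/CD, MRPL44, MRPL35, the 4 positive members and those named by series were added after their values were seen. Summaries and plots used Python 3.11.15, pandas 2.3.3, numpy 2.4.6 and matplotlib 3.10.9. Alternatives were a pseudocount of 0.1, no filter, median-of-ratios scaling, the compared groups alone, the number series as a factor, single series, leaving out animals numbered above 34000, 2 covariates (the mitochondrially encoded share and the level of Y-linked genes) and leaving out each library. Single series 31 and 33 and the left-out libraries were added after seeing the data.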

Additional observations from a re-analysis of the deposited data

Results flagged for a closer look

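Within each diet group, the highest and lowest animal of each named member were compared with the nearest other animal by Dixon's criterion at 95%. Of 96 such groups, 11 had an animal apart from the rest (11.5%). Chance gives about 1 in 20 where groups are independent. These groups hold different genes of the same animals and are not independent, so no conclusion is drawn from the 2 rates. CD/WSD replicate 5 was the lowest of its group for MRPL13 at 8.58 FPKM, MRPL37 at 5.26 FPKM, MRPL4 at 1.07 FPKM, MRPL49 at 18.99 FPKM and MRPS27 at 8.76 FPKM. The next animals of the group stood at 11.7, 18.8, 1.77, 25.9 and 13.6 FPKM. This liver had 4.41% of summed FPKM in mitochondrially encoded genes, the highest of its group.

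CD/CD replicate 5 was the highest of its group for MRPL34 at 79.8 FPKM and for MRPL41 at 32.02 FPKM, and the lowest for MRPL38 at 11.2 FPKM. It is the single CD/CD animal of the number series beginning with 31, and its share of mitochondrially encoded genes was 1.33%. The remaining cases were MRPL33 at 2.01 FPKM in CD/WSD replicate 2, MRPS18A at 0.39 FPKM in WSD/WSD replicate 2 and MRPS18B at 53.1 FPKM in WSD/CD replicate 6.

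For MRPL32 the difference by postweaning diet had opposite signs in the group means but not in the medians. All 6 CD/WSD livers lay below the CD/CD mean of log2(FPKM + 1), while all 7 WSD/WSD livers lay above the WSD/CD mean of log2(FPKM + 1). The WSD/CD livers had a wide range, from 36.4 to 106 FPKM. The medians were 82.7 FPKM in CD/WSD and 97.5 FPKM in CD/CD, and 76.1 FPKM in WSD/WSD and 79.5 FPKM in WSD/CD, lower with the western-style diet after weaning in both pairs. The second log2 difference minus the first was 0.363, which the interaction did not call (limma adjusted p = 0.326). This value is near the median interaction of the 66 members, 0.32, of which 63 were positive. Over all genes the median was 0.24. After median-of-ratios scaling the median of the members was 0.06.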

How the results depend on the processing

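Of 711 alternative values for 25 named member results, 605 kept direction and side of the threshold, 96 lost the call, 9 gained one and 1 changed direction: MRPS12 in WSD/CD against CD/CD, at 0.10 within number series 30. Of the other members called in that comparison, MRPL15, MRPS17 and MRPS7 were also positive there, at 0.15, 0.08 and 0.07, and MRPL10 in series 33, at 0.16. The 711 values include fits that leave out 1 library and results not called in the main fit. The 605 therefore does not measure how stable the calls were. Leaving those fits aside, MRPL24 and MRPL41 passed in 4 of 10 alternatives in WSD/CD against CD/CD, and MRPS12 in 1. In WSD/WSD against CD/CD, MRPL20 passed in 9 of 10. No paired analysis was possible because each animal is in 1 diet group and the labels give no relatedness between animals. Counts of members past the threshold changed as follows, and the cause was not tested. The 24 of WSD/CD against CD/CD (36.4% of members, 9.55% of all genes) became 12 without a filter (17.9%, 2.83%) and 5 with median-of-ratios scaling (7.58%, 5.82%). They became 10 with the Y-linked level as a covariate (15.2%, 4.61%) and 2 in series 30 (3.03%, 2.92%). There were 0 with the compared groups only, the series as a factor, the mitochondrially encoded share as a covariate, without animals above 34000 or in series 33. In each of those fits at most 0.024% of all genes passed. Leaving out 1 library gave 6 to 36. It gave 11, 9, 12 and 13 without CD/CD replicate 4, 6, 7 and 10, and 7, 6, 7 and 10 without WSD/CD replicate 6, 7, 9 and 10. Over all genes the calls also fell in these fits, from 1193 to 682, 446, 649 and 721, and to 231, 201, 210 and 548. The 9 of WSD/WSD against CD/CD (13.6% of members, 16.7% of all genes) became 24 with median-of-ratios scaling (36.4% of members, 18.5% of all genes), 17 with the compared groups only (25.8%, 27.3%), 25 with the series as a factor (37.9%, 44.2%), 15 without animals above 34000 (22.7%, 21.9%), 27 in series 30 (40.9%, 44.7%), 16 with the mitochondrially encoded share (24.2%, 24.9%), 0 in series 31 (0.136% of all genes) and 3 to 11 with 1 library left out. Apart from the scaled fit and series 31, these shares in either direction were close to or below those of all genes. The 0 of CD/WSD against CD/CD became 18 with the series as a factor (27.3% of members, 34.2% of all genes) and 19 in series 30 (28.8%, 39.1%). With 1 library left out it became 0 to 3, and 0 to 136 over all genes. The 17 of WSD/WSD against WSD/CD (16 higher, 1 lower) were 7 higher and 8 lower with the series as a factor. They became 10 with the compared groups only, 0 without animals above 34000 and 0 with the mitochondrially encoded share. With 1 library left out they were 12 to 19. Over all 12497 genes the calls were 5498 in the main fit and 5116 with the series as a factor. These calls were 4498 with the compared groups only, 432 without animals above 34000 and 12 with the mitochondrially encoded share. With 1 library left out, 4530 to 6083 genes passed. The interaction gave 1 in series 30, MRPS31 (1.52% of members, 0.56% of all genes). FPKM without counts leave the precision of the low members unknown.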
